A study of Mus musculus with 3 samples.

Results

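The genes described here are 38 immediate-early and stress response genes out of the 22072 gene symbols that the tables list. They were chosen by name, with earlier results of these data known. All 38 were found in every library. They were read in ScxGFP-positive cells, which carry a GFP reporter of scleraxis (Scx), a transcription factor that marks the progenitors of tendons and ligaments. The cells were sorted from hindlimbs of mouse embryos of mixed strain background at embryonic days E11.5, E13.5 and E15.5. The pools held 18, 12 and 11 hindlimbs in stage order, and a single library was made from each, sequenced from amplified cDNA. All 3 groups carry the reporter and received no treatment that the labels name. The reporter is the only selection, so a library can hold any cell that was GFP-positive in the sort, and reporter-negative cells were not analysed here. With 1 library per stage there is no replicate check: no p-value is given, and every difference is one between 2 libraries. In bulk RNA, fewer cells of a type and less RNA per cell cannot be told apart. Cells were frozen right after the sort, but the time from dissection to the sort is not given in what was used here, and handling of a pool and its stage cannot be told apart.

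Immediate-early genes are genes that a cell transcribes within minutes of a stimulus, from transcription factors already present, without making new protein first. Growth factors, calcium, stretch and stress reach them through kinases that act on serum response factor with its ternary complex partners and on CREB, which bind the CArG box and the cAMP response element (CRE). Many of the products are transcription factors, among them Fos and Jun, which pair as AP-1, and others are phosphatases and RNA-binding proteins that shut the response down. Heat shock genes encode chaperones and are switched on by heat shock factor when proteins misfold. Enzymatic dissociation of tissue is known to induce members of both sets. In tendon cells, mechanical load is a known inducer of several of them.

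The start regions of 6 members are shown. They were chosen because they match the sequences named above and because the levels of these genes show patterns reported below. A match is not a proven site, and a link between matches and levels was not tested. Fos, Fosb, Nr4a1 and Zfp36 were much higher in the later libraries, Dusp1 was higher by less, and Plk2 was highest at E13.5. Each stretch ends at the base before the transcription start, reads 5′ to 3′ on the gene's strand, and is taken from RefSeq on build GRCm38.p6. Capitals mark the CRE core TGACG or its reverse complement (Fos, Fosb, Nr4a1), the TATA sequence TATAAA (Fos), the CArG box (Zfp36) or the full CRE TGACGTCA (Dusp1, Plk2). The stretches lie at chr12:85473750-85473889 (Fos, plus strand), chr7:19310046-19310185 (Fosb, minus strand), chr15:101266606-101266845 (Nr4a1, plus strand), chr7:28379229-28379368 (Zfp36, minus strand), chr17:26508473-26508632 (Dusp1, minus strand) and chr13:110394904-110395043 (Plk2, plus strand).
Fos: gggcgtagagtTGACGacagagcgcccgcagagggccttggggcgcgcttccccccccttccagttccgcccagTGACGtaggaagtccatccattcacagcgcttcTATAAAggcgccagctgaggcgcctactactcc
Fosb: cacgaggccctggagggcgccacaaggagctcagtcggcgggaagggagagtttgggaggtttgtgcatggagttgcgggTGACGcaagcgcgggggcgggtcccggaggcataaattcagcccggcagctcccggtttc
Nr4a1: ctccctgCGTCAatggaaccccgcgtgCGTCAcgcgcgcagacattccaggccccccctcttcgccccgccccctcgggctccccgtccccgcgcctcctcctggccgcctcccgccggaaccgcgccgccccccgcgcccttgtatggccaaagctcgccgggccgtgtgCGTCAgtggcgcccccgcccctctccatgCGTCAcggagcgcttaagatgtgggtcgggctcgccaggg
Zfp36: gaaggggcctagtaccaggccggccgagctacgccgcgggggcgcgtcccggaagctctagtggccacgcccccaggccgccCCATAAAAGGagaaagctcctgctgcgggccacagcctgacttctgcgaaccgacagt
Dusp1: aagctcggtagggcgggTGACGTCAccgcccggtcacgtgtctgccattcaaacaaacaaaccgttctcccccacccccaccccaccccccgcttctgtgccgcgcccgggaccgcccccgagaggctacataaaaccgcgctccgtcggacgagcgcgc
Plk2: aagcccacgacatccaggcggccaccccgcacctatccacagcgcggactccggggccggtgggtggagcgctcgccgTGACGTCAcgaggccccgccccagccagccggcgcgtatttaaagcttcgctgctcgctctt

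Levels are given in FPKM, that is mapped fragments divided by transcript length and by the size of the library, so genes can be compared with each other per length. A fold is the ratio of 2 FPKM values, and the range after it is an approximate 95% interval for counting error only. A gene was counted as higher or lower when log2(FPKM + 1) differed by at least 1, that is 2-fold, among genes whose mean over the 3 libraries was 1 FPKM or more. Of the 38 genes, 35 reached that mean. Fosl1, Nr4a3 and Dusp5 did not, and Fosl2 reached it through its later libraries alone, so it had to differ.

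Most immediate-early members were higher in the later libraries, whereas the abundant heat shock members were not. Between E11.5 and E15.5, 21 of the 35 compared members were at least 2-fold higher and none was lower. Over all 10939 genes compared, 12.6% were higher and 2.14% lower. Of 28 compared members outside the heat shock group 19 were higher, with a median difference of 1.37 in log2(FPKM + 1), and of 7 heat shock members 2 were higher. The median over all genes was 0.07. Without Fosl2, 20 of 34 members were higher. Because the set was chosen with earlier results of these data known, its shares beside those of all genes are a description only.

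The earlier step held more of these differences than the later one, among the members and among all genes alike. From E11.5 to E13.5, 13 of 35 members were higher and none lower, against 6.00% higher and 1.02% lower over all genes. All 13 lay outside the heat shock group. From E13.5 to E15.5, 7 of 35 were higher and 1, Plk2, was lower, against 3.58% and 0.713% over all genes. The heat shock group went the other way, with 3 of its 7 members higher at the later step and none at the earlier one. Those 3 were Hspb1, Hspa1a and Hspa1b. With Hspa1a and Hspa1b as 1 entry, 6 of 34 members were higher at the later step, against 3.57% of all genes. Without Fosl2, which had to differ, 12 of 34 members were higher at the earlier step and 6 of 34 at the later one. The comparisons of the earlier and the later step share the E13.5 library. Several members stood close to the threshold: at the later step Atf3 (0.98), Fos (0.95) and Nr4a1 (0.92) lay just under a log2 difference of 1 and Socs3 (1.10) just over it. With a limit of 1.5-fold, 18 of 35 were higher at the earlier step and 13 at the later one, against 14.7% and 9.68% of all genes. At that limit 2, Hspa1a and Hspa8, were lower at the earlier step, against 4.70% of all genes.

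**Figure D1:**
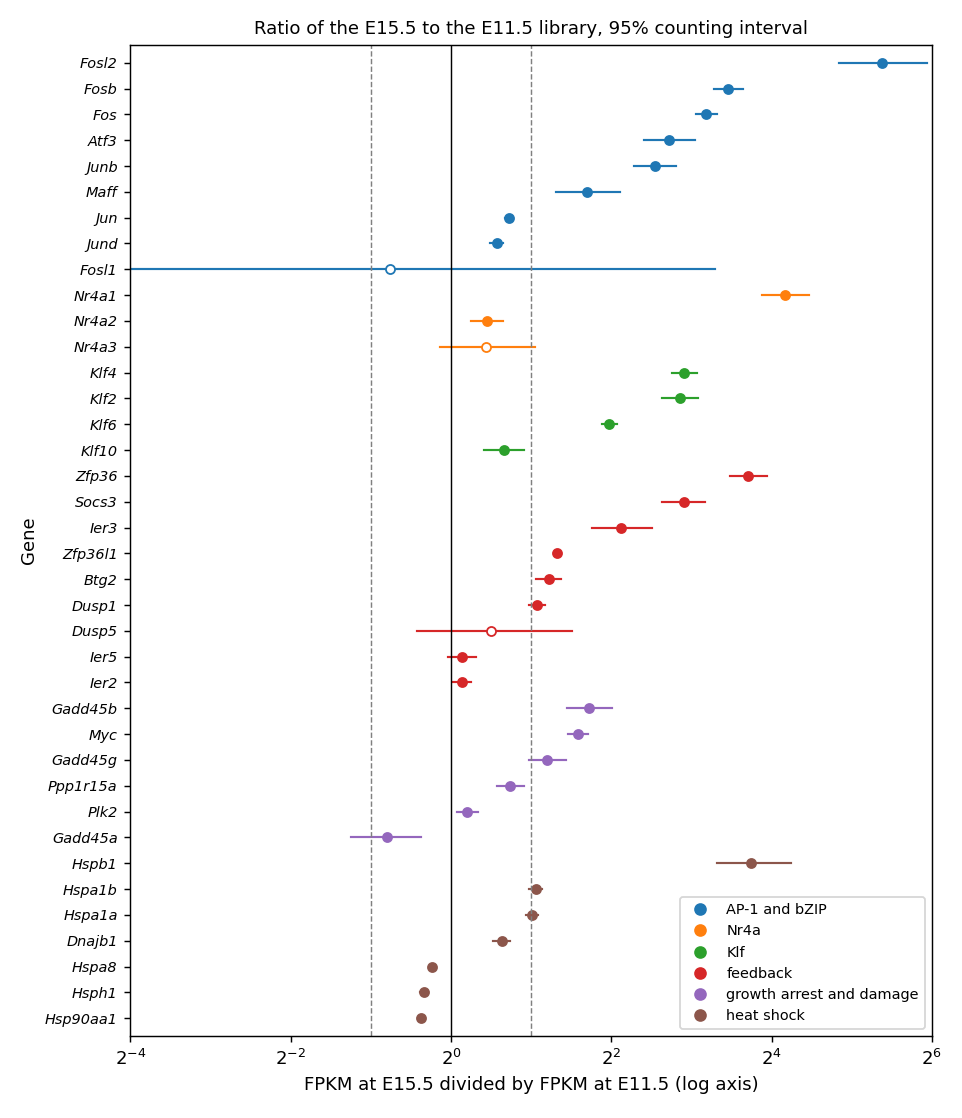
Ratio of FPKM at E15.5 to FPKM at E11.5 for each of the 38 genes on a log axis, coloured by role group, with lines for the 95% counting interval (cut off at the left for Fosl1), open circles for the 3 genes under a mean of 1 FPKM, and dashed lines at 2-fold either way. The ratios of Fosl2, Nr4a1, Hspb1 and Zfp36 lie farthest to the right, and Hspa8, Hsph1, Hsp90aa1, Gadd45a and Fosl1 lie left of 1.

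Fos and its relatives were the AP-1 genes that differed most. Fos (NM_010234, mm9 chr12:86814851-86818219), the partner that cannot act without Jun, was at 6.96, 32.4 and 63.4 FPKM in stage order. The ratio was 4.66 (4.25 to 5.11) at the earlier step and 1.96 (1.86 to 2.06) at the later one. Fosb (NM_008036, mm9 chr7:19888045-19895394), a close relative of Fos, was at 1.85, 19.2 and 20.4 FPKM, so nearly all of its 11.0-fold difference (9.74 to 12.5) lay between the first 2 libraries. Its ratio at the later step, 1.07, was 0.925 when libraries were rescaled to equal sums.

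Fosl2, which encodes a Fos-related partner of Jun proteins, was at 0.129, 1.63 and 5.37 FPKM and differed at both steps. At E11.5 about 30 reads lay on it, and at E15.5 about 1213, a ratio of 41.5 (28.8 to 61.4). Fosl1, the other Fos-related gene, rested on 2, 1 and 1 estimated reads, 0.0320, 0.0243 and 0.0190 FPKM, and a difference was not detectable at this depth. The locus of Fosl1 overlaps that of Ccdc85b, which was at 1.33 to 1.83 FPKM.

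Jun genes were abundant from the first library on and differed less. Jun (mm9 chr4:94715727-94718913), the main partner of Fos, was at 55.9, 78.9 and 92.4 FPKM, a ratio of 1.65 (1.60 to 1.70) over both steps. Jund, the Jun gene with broad expression in unstimulated cells, was at 18.0, 18.7 and 26.8 FPKM. Junb, a Jun protein often opposed to Jun in its effects, was at 1.998, 3.72 and 11.7 FPKM, 5.83-fold higher at E15.5 than at E11.5 (4.87 to 6.99), and was the only Jun gene past 2-fold.

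The balance of the 2 families therefore differed between libraries. The summed level of the 4 Fos genes was 8.98, 53.2 and 89.2 FPKM and that of the 3 Jun genes 76.0, 101 and 131 FPKM. Divided by the Jun sum, the Fos sum was 0.118, 0.526 and 0.682 in stage order, a ratio within a library that no scaling touches. Jun stood 8.04 times above Fos at E11.5 and 1.46 times above it at E15.5.

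The remaining bZIP members were low and were highest at E15.5. Atf3, a stress-induced member of the ATF/CREB family, was at 1.23, 3.63 and 8.14 FPKM. Maff, a small Maf protein without an activation domain, was at 1.01, 1.97 and 3.27 FPKM. Counted over the group, 6 of the 8 genes compared passed 2-fold between E11.5 and E15.5, all of them higher at E15.5, against 12.6% higher over all genes, and Jun and Jund had ratios above 1. Fosl2, which had to differ, is among the 6. The call of Maff, at a log2 difference of 1.09, was lost at 0.97 after rescaling to the mean of the library sums.

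**Figure D2:**
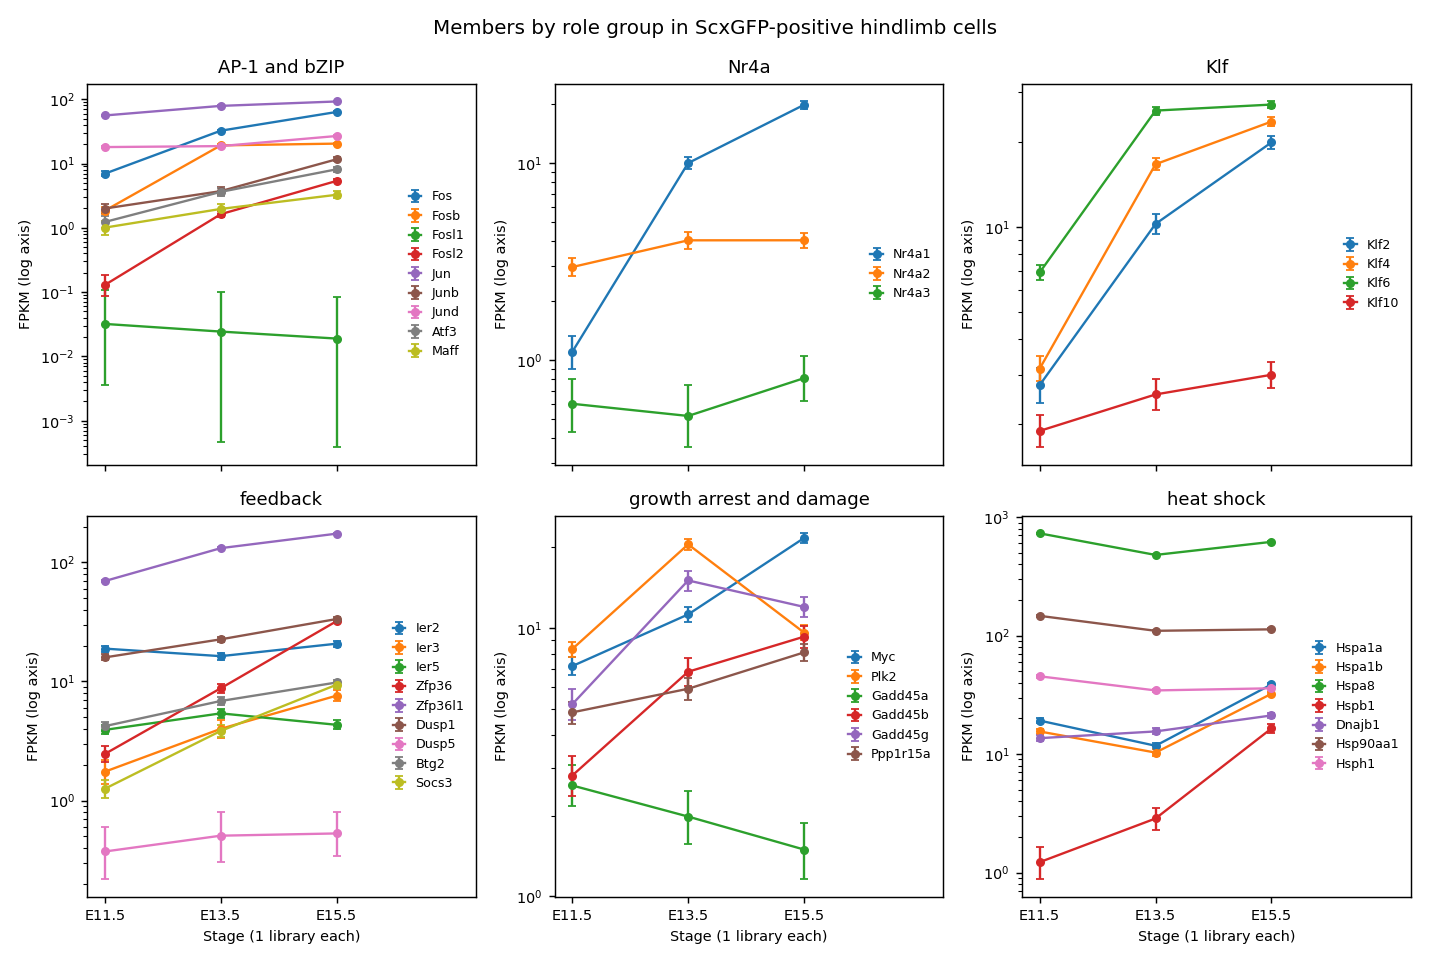
FPKM of every member at the 3 stages on log axes, 1 panel per role group, with 95% counting intervals as bars and 1 library per point. Fos, Fosb, Nr4a1, Klf2, Klf4, Zfp36 and Hspb1 climb steeply, Plk2 and Gadd45g peak at E13.5, and Hspa1a, Hspa1b and Hspa8 have their lowest point there.

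Of the Nr4a genes, orphan nuclear receptors that are switched on without a known ligand, Nr4a1 alone differed strongly. Nr4a1 (NM_010444, mm9 chr15:101097277-101105225) was at 1.10, 10.0006 and 19.8 FPKM, with a ratio of 9.09 (7.43 to 11.2) at the earlier step and 1.98 (1.82 to 2.15) at the later one. Over both steps it was 18.0-fold higher (14.8 to 22.1). Among the 11027 genes that reached a mean of 1 FPKM its rank moved from the 9.10th percentile at E11.5 to the 86.2nd at E15.5.

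Nr4a2 was at 2.97, 4.05 and 4.06 FPKM and Nr4a3 at 0.5998, 0.520 and 0.809 FPKM, with no step past 2-fold for either. In the first library Nr4a2 was 2.70 times as high as Nr4a1, and in the last 0.205 times as high. The sum of Nr4a2 hides a difference between its 2 listed transcripts, whose loci share 1 end and differ at the other. NM_001139509, with the longer locus (mm9 chr2:56959637-56976414), was at 1.81, 1.92 and 0.794 FPKM. NM_013613 (mm9 chr2:56959637-56967449) was at 1.16, 2.14 and 3.26 FPKM. The share of the gene's FPKM given to NM_013613 was 39.0%, 52.7% and 80.4% in stage order, and this split rests on the authors' estimate, since reads in shared exons are divided by it.

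The 4 Klf genes encode zinc-finger factors that bind GC-rich sites. In the earlier step 3 of them passed 2-fold, all of them higher, against 6.00% higher over all genes. Klf4, known for its part in pluripotency and in cell cycle exit, was at 3.15, 16.7 and 23.6 FPKM, a ratio of 5.31 (4.74 to 5.95) at the earlier step. Klf6, a widely expressed relative, was at 6.90, 25.9 and 27.2 FPKM, so its difference also lay almost wholly in the earlier step. Its later ratio, 1.05, was 0.912 when libraries were rescaled to equal sums. Klf2, known from endothelium, where fluid shear induces it, was at 2.75, 10.3 and 19.96 FPKM.

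The summed level of all 8 endothelial markers was in the same order as Klf2 but low, at 0.987, 2.77 and 9.20 FPKM, with 0, 0 and 3 of 8 at 1 FPKM or more and Cldn5 listed at 0 at E13.5. Singly, 4 of the 8 were in rising order, and Cdh5, Tie1, Esam and Cldn5 were not. Their part in the Klf2 values was not tested. Klf10, first described as a gene induced early by TGF-beta, was at 1.89, 2.55 and 2.996 FPKM and did not pass 2-fold.

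Among the feedback genes, Zfp36 and Socs3 differed most, followed by Ier3. Zfp36 (NM_011756, mm9 chr7:29161803-29164247) encodes tristetraprolin, which binds AU-rich mRNAs, those of many immediate-early genes included, and speeds their decay. It was at 2.46, 8.77 and 32.1 FPKM, with similar ratios at both steps, 3.56 (2.99 to 4.26) and 3.66 (3.32 to 4.05). Socs3, an inhibitor of JAK-STAT signalling, was at 1.26, 3.85 and 9.40 FPKM, again with both steps past 2-fold. Zfp36, Socs3 and Fosl2 were the members counted as higher at each step, although Socs3 at the later step stood at 0.93 in log2 when libraries were rescaled to the mean of their sums.

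Zfp36l1, a relative of Zfp36 that also promotes mRNA decay, was the most abundant member outside the heat shock group at 69.8, 132 and 174 FPKM. The ratio over both steps was 2.50 (2.44 to 2.57). Dusp1, a nuclear phosphatase of stress-activated kinases, was at 15.9, 22.6 and 33.5 FPKM, and Btg2, an antiproliferative gene induced by p53 and growth factors, at 4.22, 6.86 and 9.81 FPKM. The log2 differences of Dusp1 and Btg2 from E11.5 to E15.5, 1.03 and 1.05, were 0.87 and 0.91 after rescaling to the mean of the sums, so that neither call held.

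The 3 Ier genes did not share 1 pattern. Ier3, which encodes a survival protein induced by many stimuli, was at 1.75, 4.003 and 7.61 FPKM, 4.35-fold higher over both steps (3.38 to 5.68). Ier2, an early gene with a single exon, was at 18.9, 16.3 and 20.8 FPKM, and Ier5, a relative of Ier2, at 3.92, 5.40 and 4.33 FPKM. The E15.5 to E11.5 ratios of Ier2 and Ier5, 1.10 and 1.10, changed sides of 1 with the scaling. Dusp5, a nuclear phosphatase of ERK, was at 0.373, 0.507 and 0.529 FPKM on about 17, 19 and 24 reads, and its intervals include 1 at every step.

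In the group of growth arrest and damage genes the order of the libraries varied most. Myc, a transcription factor of growth and an early target of mitogens, was at 7.20, 11.2 and 21.6 FPKM, 2.999-fold higher at E15.5 than at E11.5 (2.75 to 3.28). Of its 2 listed transcripts, NM_010849 held 85.1%, 88.2% and 88.1% of the FPKM. Plk2 (NM_152804, mm9 chr13:111185252-111191051), a polo-like kinase that is itself an immediate-early gene, was at 8.33, 20.5 and 9.60 FPKM. It was 2.45-fold higher at E13.5 than at E11.5 (2.27 to 2.66), and at E15.5 its ratio to E13.5 was 0.469 (0.435 to 0.507), which made it the only member counted as lower at any step.

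The Gadd45 genes, small regulators of stress kinases and of DNA repair, went separate ways. Gadd45g was at 5.19, 15.01 and 11.96 FPKM, with its highest level at E13.5 like Plk2. Its log2 difference from E11.5 to E15.5, 1.07, was 0.92 after rescaling to the mean of the sums, which ends the call. Gadd45b was at 2.82, 6.86 and 9.27 FPKM. Gadd45a, the family member most closely tied to p53, was at 2.59, 1.98 and 1.49 FPKM, the only compared member with its deposited values in falling order, and it rested on about 125, 78 and 70 reads. Ppp1r15a, which restores translation after stress by directing a phosphatase to eIF2alpha, was at 4.84, 5.93 and 8.10 FPKM.

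In the heat shock group, Hspa8, Hsp90aa1 and Hsph1 were highest at E11.5, and Hspa1a, Hspa1b, Hspb1 and Dnajb1 were highest at E15.5. Hspa8, the constitutive cytosolic Hsp70 chaperone, was at 730, 480 and 618 FPKM and was the highest member in each library. Its locus overlaps that of LOC624853, a separate entry at 139, 78.1 and 133 FPKM, so reads may be divided between them. Hsp90aa1, the inducible cytosolic Hsp90, was at 147, 110 and 113 FPKM, and Hsph1, which recharges Hsp70 proteins with ATP, at 45.3, 34.4 and 35.9 FPKM.

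From E11.5 to E13.5, 5 of the 7 heat shock members had negative differences, with a group median of -0.42. Abundant genes as a whole were also lower at that step: of 203 genes whose mean reached 100 FPKM, 143 were below their E11.5 level, with a median of -0.19. Among the heat shock members only Hspa8 and Hsp90aa1 reached that mean, at 609 and 123 FPKM. At the later step 147 of the 203 genes were above their E13.5 level, with a median of 0.18. All 7 heat shock members had positive differences there. No heat shock member was past 2-fold from E11.5 to E13.5.

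Hspa1a and Hspa1b encode the stress-inducible Hsp70 and are near-identical neighbours. Of all stretches of 41 bases in the Hspa1a transcript, 61.1% also occur in that of Hspa1b in the GENCODE set for GRCm38, so their reads cannot be fully told apart and the sum is the safer value. Hspa1a was at 19.2, 11.8 and 38.7 FPKM and Hspa1b at 15.51, 10.3 and 32.3 FPKM. Summed they stood at 34.7, 22.0 and 70.9 FPKM, with a ratio of 0.636 (0.602 to 0.671) at the earlier step and 3.22 (3.06 to 3.38) at the later one. The sum was 2.05-fold higher at E15.5 than at E11.5 (1.97 to 2.13). Hspa1b alone, at a log2 difference of 1.01 over both steps, was past the limit and Hspa1a, at 0.98, was not, and Hspa1b was at 0.96 with size factors, 0.88 after rescaling to a sum of 1000000 and 0.85 after rescaling to the mean of the sums. Set against this pair, Hspa8 was 21.0, 21.8 and 8.72 times as high.

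Hspb1 (NM_013560, mm9 chr5:136363789-136365433), a small heat shock protein that also binds actin and is abundant in muscle, was at 1.22, 2.86 and 16.4 FPKM. The ratio was 5.75 (4.57 to 7.35) at the later step, the largest of any member there. The summed level of all 12 skeletal muscle markers was in the same order, at 11.2, 53.4 and 205 FPKM, of which Actc1 alone gave 5.35, 39.3 and 164. Of the 12, 3, 6 and 10 reached 1 FPKM and Ckm was listed at 0 at E13.5. Singly, 9 were in rising order, while Pax3 was in falling order and Myf5 and Ckm were lowest at E13.5. Their part in the Hspb1 values was not tested. Dnajb1, a co-chaperone of Hsp70 induced by heat, was at 13.6, 15.52 and 21.2 FPKM.

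**Figure D3:**
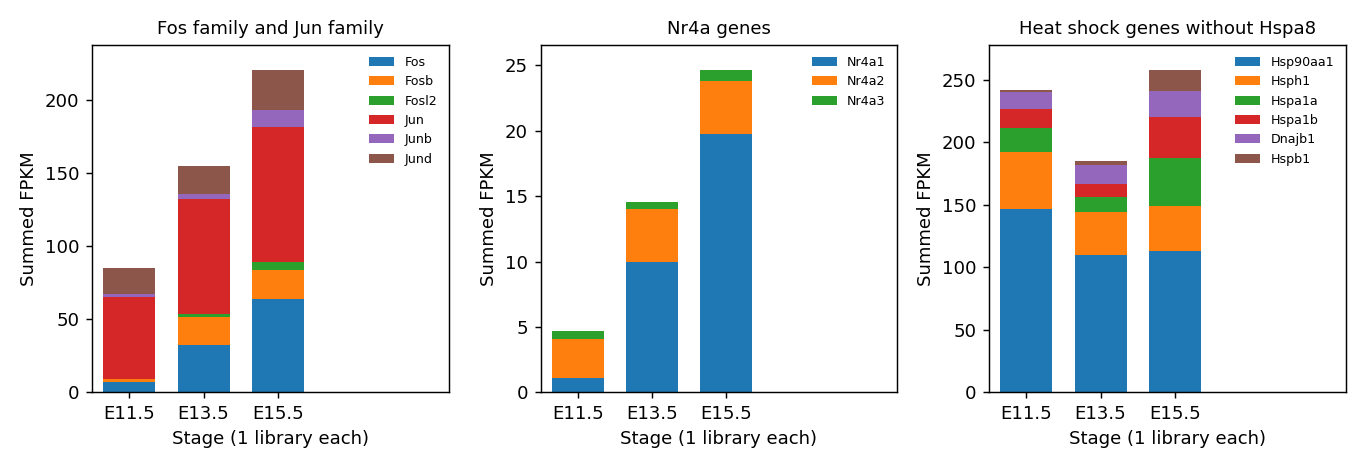
Stacked bars of FPKM at the 3 stages for the Fos and Jun genes (without Fosl1, at 0.0320 FPKM or less), the Nr4a genes and the heat shock genes other than Hspa8, with 1 library per bar. The Fos share of the first panel grows from E11.5 to E13.5, Nr4a1 makes up 80.2% of the Nr4a sum at E15.5, and the heat shock bar is lowest at E13.5.

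Summed over all 7 heat shock members, the level was 971, 664 and 876 FPKM, and over the 31 other members 256, 492 and 684 FPKM. The set as a whole thus made up 0.771%, 0.745% and 0.873% of each library's FPKM, while its make-up differed. Ordered over the stages, 25 of the 35 compared members had rising values at both steps, where 34.3% of all genes did. Fosl2, which had to differ, is among the 25. A further 6 were lowest at E13.5 (Ier2, Hspa1a, Hspa1b, Hspa8, Hsp90aa1 and Hsph1; 20.7% of all genes), 3 were highest there (Ier5, Plk2 and Gadd45g; 23.1%) and 1 had falling values (Gadd45a; 21.9%). After rescaling to the mean of the library sums, 22 members were in rising order, against 24.7% of all genes, 6 were highest at E13.5, with Fosb, Nr4a2 and Klf6 added, and 3 were in falling order, with Hsp90aa1 and Hsph1 added.

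**Figure D4:**
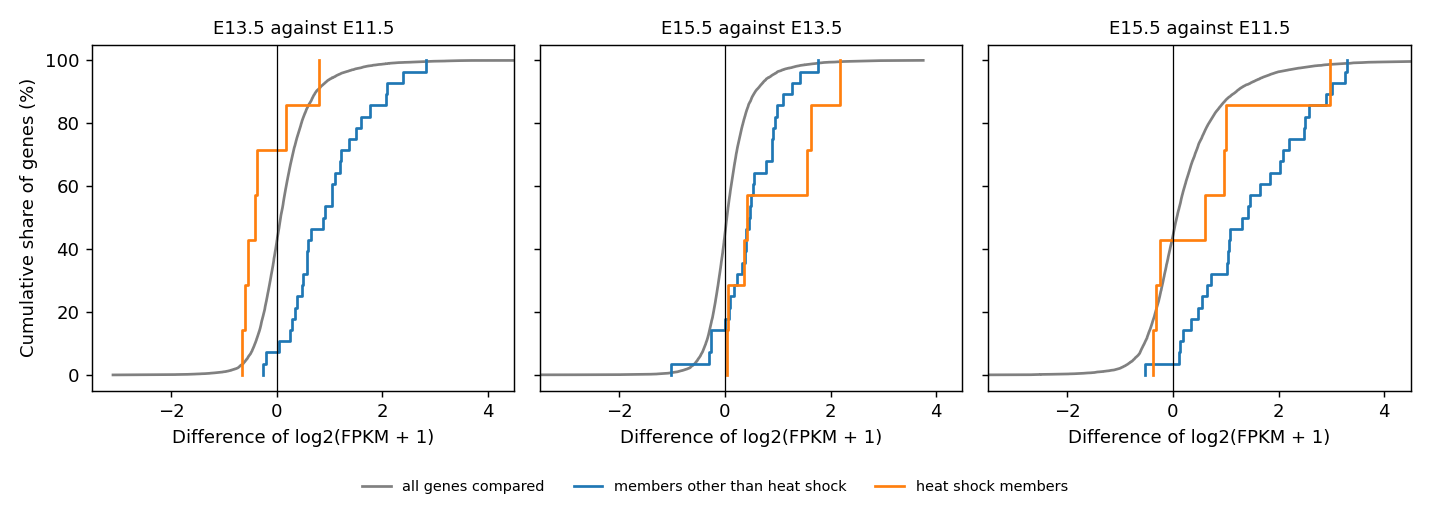
Cumulative share of genes (per cent) against the difference of log2(FPKM + 1) in the 3 comparisons, for all genes compared, the 28 compared members outside the heat shock group and the 7 heat shock members. The blue line of the 28 lies to the right of the grey line of all genes over most of its length in each panel, and the orange heat shock line lies left of the grey one over most of the first panel.

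Reads estimated on the listed transcripts came to 14400000, 12800000 and 17900000 in stage order, which is not the size of each library. A transcript of 2000 bases at 10 FPKM held an estimated 787, 645 and 771 reads, a counting error of 3.57% to 3.94%. These read numbers come from the coverage per FPKM of each library, not from the totals. Scx, the gene behind the reporter, was at 375, 410 and 213 FPKM, and 4, 8 and 8 of the 8 tendon markers reached 1 FPKM, with Tnmd listed at 0 at E11.5. Leukocyte markers, 12 in number, summed to 2.49, 1.73 and 3.72 FPKM, with 1, 0 and 0 at 1 FPKM or more and Tyrobp, Emr1 and C1qa listed at 0 in the first 2 libraries. The 8 erythroid markers summed to 10.8, 19.95 and 80.4 FPKM, the 8 of smooth muscle and pericytes to 15.2, 31.8 and 55.0, the 6 of epidermis to 1.19, 4.21 and 10.01, the 6 of Schwann cells to 2.25, 2.14 and 2.43 and the 6 of cartilage to 140, 221 and 320. These sums were in the same rising order as most immediate-early members for every list except those of leukocytes and Schwann cells. Singly, 7 of 8 smooth muscle and pericyte, 5 of 6 epidermis, 5 of 6 cartilage and 6 of 8 tendon markers were in rising order. So were 3 of 8 erythroid, 5 of 12 leukocyte and 0 of 6 Schwann cell markers, where 34.3% of all genes compared were. That share is over genes whose mean reached 1 FPKM, whereas the markers were ordered without this filter. Some of their orders rest on values near 0, such as Hba-a2 at 0.000113, 0.000132 and 0.000275 FPKM. Falling order was seen for 2 erythroid, 1 cartilage, 1 leukocyte and 1 Schwann cell marker, and for none of the other 3 lists named here. Beta-s alone gave 67.4 FPKM of the erythroid sum at E15.5, and Sox9 in the cartilage list was in falling order at 56.2, 41.0 and 22.5 FPKM. Their part in the members' values was not tested. Rescaling to the mean of the library sums moved the median of all genes at the later step from 0.04 to -0.13, and the share of higher genes among all genes past 2-fold from 83.4% to 67.1% (58.3% after rescaling to a sum of 1000000). Over both steps that share was 85.5% as deposited, 76.3% and 71.7%. Under the scalings tried, the members' ratios kept their side of 1 at the earlier step for all 38, at the later step for all but Dusp5, Fosb, Hsp90aa1, Hsph1, Klf6 and Nr4a2, and over both steps for all but Ier2 and Ier5.

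Other immediate-early genes that are not members, 39 in number, were listed with them. Of the 26 that were compared, 8 passed 2-fold upwards between E11.5 and E15.5 and none downwards. Over all genes 12.6% were higher and 2.14% lower. The median of the 26 was 0.69. Egr1, a zinc-finger factor with CArG boxes in its promoter and a known role in tendon cells, was at 13.8, 87.5 and 298 FPKM, above every member but Hspa8 at E15.5. Thbs1, which encodes the matrix protein thrombospondin-1, was at 4.60, 16.6 and 26.8 FPKM. At the other end Irs2, an adaptor of the insulin receptor, was at 12.8, 12.2 and 11.2 FPKM.

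Relatives of the member families were listed too, and are given for the same comparison, where 12.6% of all genes were higher and 2.14% lower. Of 17 other bZIP genes compared, 7 were higher and none lower (median 0.76), with Creb5 at 2.82, 13.2 and 12.6 FPKM. Of 12 other Klf and Sp genes 3 were higher and none lower (median 0.57), with Klf14 at 0.486, 3.09 and 17.8 FPKM and Klf7 at 2.34, 6.13 and 11.6. Other ERK feedback genes were mixed: 4 of 14 were higher and 1 lower (median 0.35). Spry4, an inhibitor of receptor signalling, was at 2.43, 7.78 and 16.6 FPKM, whereas Dusp6, the cytoplasmic ERK phosphatase, was at 19.0, 7.83 and 6.24.

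Upstream factors and other chaperones were listed as well. In the list of serum response factor, its partners and the kinases above them, 2 of 17 were higher, or 11.8% against 12.6% of all genes. None was lower, and the median was 0.17. Elk4, a ternary complex factor, was at 4.999, 9.02 and 12.1 FPKM. Of 31 other heat shock and chaperone genes compared, 7 were higher, or 22.6% against 12.6% of all genes, and none lower, while the median, 0.04, was below the 0.07 of all genes. Bag3, a co-chaperone induced by heat shock factor, was at 7.24, 12.0 and 24.6 FPKM, and Serpinh1, the collagen chaperone, at 35.3, 76.6 and 145. In contrast Fkbp4 and Stip1, co-chaperones of Hsp90, were at 96.3, 58.1 and 55.6 FPKM and at 31.9, 21.9 and 19.0, both lowest at E15.5.

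The members share a compact gene structure, which the choice by name did not use. The median locus spanned 3828 bases on mm9, against 22154 for the 11027 genes at that mean, and 31 of 38 members spanned less than 10000 bases, where 27.2% of those genes did. The median transcript length was 2366 bases against 2867, so the difference lay mostly in introns. Jun, Junb, Jund, Ier2, Ier5, Hspa1a and Hspa1b were listed with a locus as long as the transcript, that is with a single exon.

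Start-site windows of 300 bases, from 250 before to 50 after the start, were found in RefSeq for 32 of the 38 members. Fosl1, Klf10, Ier2, Myc, Hspa8 and Hsp90aa1 had none. Each motif was searched on both strands, and a match is a description of the sequence, not a site. Bases outside the window were not searched, so the lack of a match says nothing about sites farther away. The CRE core TGACG was in the window of 17 of 32 members (53.1%), of 23.0% of all 27025 genes with a window and of 36.8% of the 7790 among them whose mean reached 1 FPKM. The count includes the full CRE TGACGTCA, which 5 members held (Maff, Dusp1, Btg2, Plk2 and Ppp1r15a), or 15.6% against 2.03% of all genes and 3.79% of those at 1 FPKM.

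The CArG box, taken as an exact CCWWWWWWGG where W is A or T, was in 2 windows, those of Zfp36 and Dusp5. That is 6.25% against 1.81% of all genes and 1.58% of those at 1 FPKM. Fosl2, Klf6, Ier3 and Socs3, counted as higher at E15.5 than at E11.5, had neither a CRE core nor a CArG box in their windows. Nr4a2 and Nr4a3 had the core and no step past 2-fold. In the stretches printed above, the CArG box begins 58 bases before the start of Zfp36. The core TGACG begins 129 and 66 bases before the start of Fos and 60 before that of Fosb, and Nr4a1 holds 4 cores on the minus strand, with their first bases at 233, 213, 69 and 40 before the start. The AP-1 site TGAGTCA or TGACTCA was in none of the 32 windows but in 5.95% of all genes and 4.03% of those at 1 FPKM. The heat shock element, taken as 3 alternating GAA and TTC units spaced by pairs of bases, was found for 1 member, Hsph1. It was found for 0.662% of all genes and 0.591% of those at 1 FPKM. The match of Hsph1 lies after the start. Hspa8 and Hsp90aa1 had no window to search, and elements that depart from this exact pattern were not searched for in any member. TATAAA was in 7 of 32 (21.9%, against 15.7% of all genes and 8.24% of those at 1 FPKM), CCAAT in 15 (46.9%, against 41.1% and 43.7%) and GGGCGG in 27 (84.4%, against 38.2% of all genes and 72.1% of those at 1 FPKM).

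**Figure D5:**
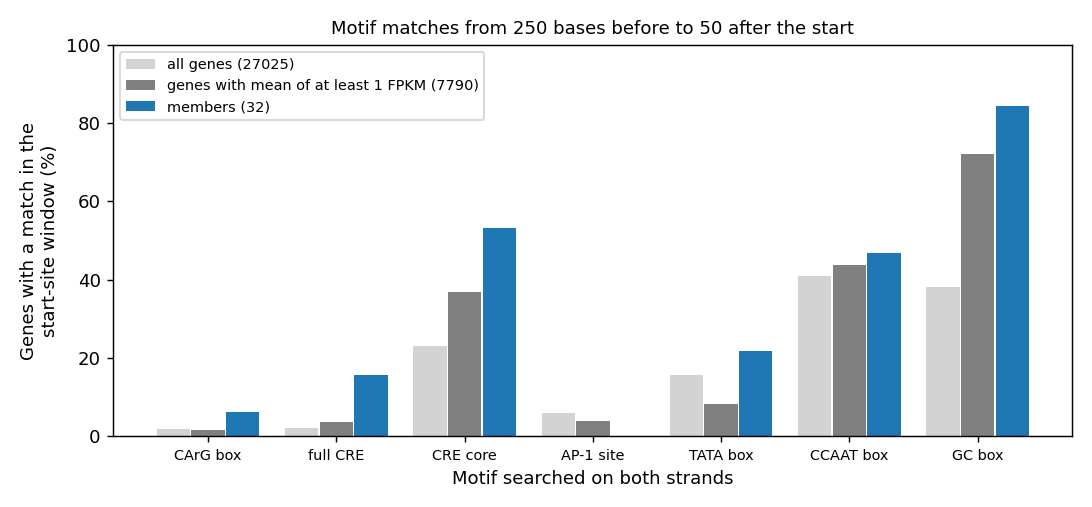
Share of genes (per cent) with at least 1 match of each motif in the start-site window, for all genes with a window, those whose mean reached 1 FPKM, and the 32 members with a window. The heat shock element, which was also searched, is not shown. The bar of the members is the highest of the 3 for every motif shown except the AP-1 site, where it is at 0.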

How the data were processed

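RNA was measured in 1 library for each of 3 stages, grouped by the age in the labels. The authors deposited FPKM per RefSeq transcript and a coverage signal, which was proportional to FPKM within each library. Per the submitters' processing notes, which give no roles, Bowtie 0.12.7, TopHat 1.4.1 and build mm9 were used. Whether strand was used, which annotation release was taken and how rows were filtered is not given in the sources here. Reads of overlapping genes therefore may be mixed, and amplification of cDNA adds noise that counting intervals leave out.

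FPKM was summed over transcripts of a symbol (3793 symbols have several). Comparisons used genes whose mean reached 1 FPKM, with status OK in both libraries and a pseudocount of 1, in Python 3.11.15 with pandas 2.3.3 and scipy 1.17.1, and the code was tested on simulated data. Reads were estimated as coverage times length over 41 bases, the commonest covered length of low transcripts between 30 and 60. Intervals are exact Poisson or Clopper-Pearson at 95%. Loci are given counting from 1. Members and lists were chosen with earlier results of these data known. All 38 members are named; of related lists, at most 2 genes each way by largest difference from E11.5 to E15.5, at 5 FPKM or more in the higher library. Alternatives changed the pseudocount, filter, status, transcript sum, scaling and fold.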

Additional observations from a re-analysis of the deposited data

How the results depend on the processing

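Counts of members past 2-fold stayed within 1.5 times of those reported under the other settings run with 1 exception; 2 of the settings were added after seeing the data (rescaling to the mean of the sums, and Hspa1a and Hspa1b as 1 entry). The exception was a 1.5-fold limit, where 2 members were lower at E13.5 than at E11.5 instead of none, and 13 were higher at E15.5 than at E13.5 instead of 7. The median log2 difference of the members from E11.5 to E13.5, 0.59, was 0.87 with a pseudocount of 0.1. From E13.5 to E15.5 it was 0.46, 0.29 after rescaling to a sum of 1000000 and 0.28 after rescaling to the mean of the sums. Members highest at E13.5 numbered 3 as deposited and 6 after that rescaling, and members in falling order 1 and 3, a check added after seeing the data. Over the single members, 898 of 915 values kept their side of the 2-fold limit, 17 crossed it and none of those past it changed direction. Many of these values could not cross. The 105 with any status, the 105 without a filter on the mean and the 78 with the filter at 5 FPKM repeat the reported values. With the highest transcript only Nr4a2 and Myc could change, and with Hspa1a and Hspa1b as 1 entry only that entry could. Over all genes, 656 were higher and 112 lower from E11.5 to E13.5, 391 and 78 from E13.5 to E15.5, and 1380 and 234 over both steps. In the same order these counts were 1154 and 191, 584 and 189, and 1838 and 431 with a pseudocount of 0.1, 381 and 43, 214 and 42, and 712 and 124 with the filter at 5 FPKM, 1748 and 350, 720 and 515, and 2310 and 913 after rescaling to 1000000, 704 and 106, 283 and 139, and 1166 and 362 after rescaling to the mean of the sums, and 1607 and 514, 1058 and 375, and 2526 and 945 with a 1.5-fold limit. With 1 library per stage no library can be left out. No paired analysis was possible because each stage has 1 library. Depth limits Fosl1, Dusp5 and Nr4a3, whose intervals include 1 in each comparison.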

Other observations

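Lists for other kinds of stress are given for E11.5 against E15.5. There the median of all genes was 0.07, with 12.6% higher and 2.14% lower. In the list of the integrated stress and unfolded protein responses, 1 of the 11 compared, Vldlr, passed 2-fold and was higher, with a median log2 difference of 0.13. Ddit3, a transcription factor of prolonged stress in the endoplasmic reticulum, was at 3.67, 5.31 and 8.16 FPKM in stage order, and Atf4, the main factor of the integrated stress response, at 38.9, 54.7 and 66.7. Asns, an Atf4 target that makes asparagine, was at 6.62, 6.57 and 6.27 FPKM.

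Of 10 compared p53 targets, 2 were higher and 1 lower, against 12.6% and 2.14% of all genes, with a median of 0.21. Ccng1, which encodes cyclin G, was at 2.57, 4.74 and 7.01 FPKM, Mdm2, the ubiquitin ligase of p53, at 13.4, 12.5 and 10.6, and Bax, a pore-forming cell death protein, at 12.4, 9.88 and 7.69. Among 10 reference genes 1, B2m, was past 2-fold (12.6, 22.9 and 43.3 FPKM), and the median was 0.03. From E11.5 to E13.5 the reference median was -0.19, with 9 of 10 below 0, and Gapdh was at 726, 443 and 517 FPKM.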
